A study of Mus musculus with 12 samples.

Results

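Mitosis and spindle genes are described here in whole newborn lungs of Foxf1+/- and wildtype mice. The set holds 48 genes of cell division listed by name, and its members were the array probes whose annotated symbol is one of those names, 1 probe per gene, the one with the highest mean over the 12 arrays of the processed table. Of the 48 names, 46 matched a probe, out of 19057 genes with a probe of a single symbol, and Ccnb1 and Mki67 were not analysed here. A filter on dim probes kept 37 members, among 15653 genes tested in all.

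Foxf1+/- lungs (6 arrays) came from pups at postnatal day 0.5 that carried 1 deleted copy of Foxf1, a forkhead transcription factor of lung mesenchyme and endothelium. Wildtype lungs (6 arrays) came from littermates of the same age. The strain background of both genotypes was a mix of 129/C57BL6/J. The deletion was made by crossing mice with a floxed Foxf1 allele to EIIa-Cre mice, in which the recombinase acts in many tissues and in the germ line, and it removed exon 1 and part of the promoter throughout the animal. One Illumina MouseWG-6 v2.0 bead array was used per whole lung. Levels below are normalized log2 probe intensities, so a difference of 1 is a doubling of signal, and a fold change is the log2 ratio of Foxf1+/- to wildtype signal, given with its SE. A gene is called where the Benjamini-Hochberg adjusted p of limma, taken over all 33947 probes tested, was under 0.05. P-values measure the spread between these lungs.

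Mitosis is the part of the cell cycle in which the copied chromosomes condense, attach to a spindle of microtubules and are pulled apart before the cell divides. Cyclin-dependent, Polo and Aurora kinases start and order these events, kinetochores join chromosomes to the spindle, a checkpoint holds the cell until every kinetochore is attached, and motors and midzone proteins separate the chromosomes and split the cell. Most genes of this machinery are transcribed mainly from late S phase to mitosis, so in a tissue their transcripts are widely used as a sign of dividing cells. At birth the mouse lung still grows by division in its mesenchyme, endothelium and epithelium. In RNA of whole lung, more dividing cells and more of these transcripts per dividing cell cannot be told apart.

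The periodic transcription of these genes is known to run through short promoter elements, the cell cycle homology region (CHR), bound by the MuvB core complex that FOXM1 and B-MYB join, and the CCAAT box, bound by NF-Y. Promoters of the 4 members with the smallest p among those with an entry in the RefSeq promoter table (build GRCm38.p6) are shown because these genes carry the clearest difference between the genotypes. Each runs from 250 bases before to 50 bases after the annotated start, with CHR matches (TTTGAA or TTCGAA, either strand) and CCAAT matches (CCAAT, or ATTGG for the other strand) in capitals. The intervals are chr7:122159185-122159484 for Plk1, chr7:80294201-80294500 for Prc1, chr11:117848987-117849286 for Birc5 and chr15:102296043-102296342 for Espl1, all on the plus strand.
Plk1: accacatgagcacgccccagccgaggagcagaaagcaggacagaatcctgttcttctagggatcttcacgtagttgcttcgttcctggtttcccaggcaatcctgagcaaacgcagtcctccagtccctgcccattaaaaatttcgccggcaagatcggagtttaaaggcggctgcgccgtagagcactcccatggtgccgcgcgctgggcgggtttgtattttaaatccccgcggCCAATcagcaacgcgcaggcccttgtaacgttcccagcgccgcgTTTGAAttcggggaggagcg
Prc1: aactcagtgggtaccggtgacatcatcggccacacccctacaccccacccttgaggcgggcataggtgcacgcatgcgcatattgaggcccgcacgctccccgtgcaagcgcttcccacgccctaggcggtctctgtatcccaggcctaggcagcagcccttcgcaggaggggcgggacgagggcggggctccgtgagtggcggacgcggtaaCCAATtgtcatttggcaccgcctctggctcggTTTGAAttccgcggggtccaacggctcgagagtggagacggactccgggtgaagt
Birc5: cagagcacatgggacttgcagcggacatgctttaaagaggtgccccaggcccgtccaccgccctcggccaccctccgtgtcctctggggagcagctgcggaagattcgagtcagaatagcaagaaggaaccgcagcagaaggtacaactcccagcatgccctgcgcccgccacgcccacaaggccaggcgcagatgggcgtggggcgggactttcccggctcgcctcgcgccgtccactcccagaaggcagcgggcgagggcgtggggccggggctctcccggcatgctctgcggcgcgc
Espl1: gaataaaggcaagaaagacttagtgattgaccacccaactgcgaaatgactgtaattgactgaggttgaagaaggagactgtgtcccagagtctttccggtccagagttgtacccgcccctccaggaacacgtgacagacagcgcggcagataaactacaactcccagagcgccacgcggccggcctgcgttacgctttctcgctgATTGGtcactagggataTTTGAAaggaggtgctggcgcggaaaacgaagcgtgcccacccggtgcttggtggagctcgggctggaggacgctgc

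Plk1 had a CCAAT match from 14 to 10 bases before the start and a CHR match from base 31 to 36 after it. In Prc1 the CCAAT match lay from 37 to 33 bases before the start, and the CHR match began 5 bases before it. Espl1 held the inverted box, ATTGG, from 44 to 40 bases before the start and a CHR match from 27 to 22 bases before it. Birc5 had neither set of letters in this window. Foxm1, Aurkb, Incenp, Ccna2, Pbk, Tpx2, Dlgap5 and Kif20a have no entry.

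Over the whole set, 40 of the 48 members had a promoter entry, and 31 of these (77.5%) held a CHR match, against 19.4% of 27025 promoters in the table and 15.1% of the 12518 promoters of genes tested on the arrays. Within 100 bases before to 50 bases after the start the shares were 75% of member promoters and 8.68% of all promoters. CCAAT matches stood in 75% of member promoters and 37.9% of all promoters, and both motifs together in 65.0% and 7.7%. The 2 motifs were searched separately and may share bases. Besides Birc5, the members without a CHR match were Ccnb1, Cenpe, Cks2, Mad2l1, Melk, Nek2, Nuf2 and Nusap1. The match was present in 13 of 15 promoters of members called higher (86.7%) and in 12 of 16 of members tested and not called (75%), a description with no test of the difference.

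**Figure D1:**
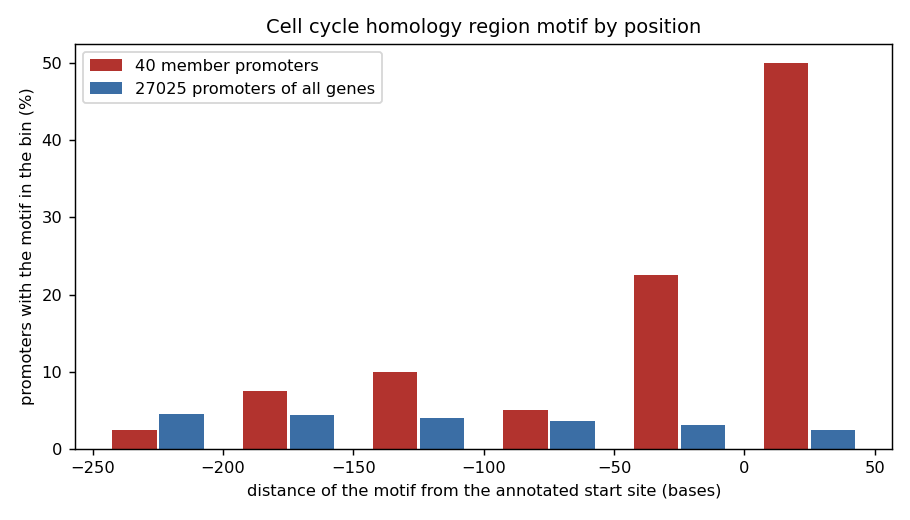
Share of promoters (y axis, percent) with a CHR match in each stretch of 50 bases, by distance from the annotated start (x axis, bases), for 40 member promoters in red and 27025 promoters of all genes in blue. In the 50 bases after the start 20 of the 40 member promoters held a match, against 2.4% of all promoters.

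The experiment that each array belonged to bears on every level given here. The methods of the study speak of 2 array experiments, which no label assigns, and the arrays were split by their raw signal into 6 brighter arrays (experiment A, Foxf1+/- replicates 1 to 4 and wildtype replicates 1 and 2) and 6 dimmer ones (experiment B, Foxf1+/- replicates 5 and 6 and wildtype replicates 3 to 6). The split is inferred, and the experiment was a term in the fit. Median raw intensity per array ran from 57.3 to 89.3, and precision is limited by how many arrays there were. Foxf1 itself was lower in Foxf1+/- lungs, at 9.999, 11.001 and 11.35 (lowest, median and highest), against 11.08, 11.58 and 12.02 in wildtype lungs. Its log2 fold change was -0.999 ± 0.13 (limma, adjusted p = 0.00224), with no overlap of the genotypes within either experiment. Where its probe lies relative to the deleted part was not established, so it checks the labels only in part.

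Marker genes of alveolar type 2 cells were high in all arrays, with a mean level of 12.61 to 13.01 in Foxf1+/- and 12.85 to 13.03 in wildtype lungs. Those of macrophages were lower, at 8.26 to 8.45 in Foxf1+/- and 8.19 to 8.48 in wildtype lungs. Some arrays stood apart in markers of other tissues. T cell and thymocyte markers averaged 8.42 in wildtype replicate 5 and 6.75 to 7.07 in the other 11 arrays. Squamous epithelium markers averaged 6.93 to 7.16 in Foxf1+/- replicates 1, 2, 3 and 5, 6.83 in wildtype replicate 6, and 8.65 to 10.4 in the remaining arrays.

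Mitosis and spindle genes were higher in Foxf1+/- lungs. Of the 37 tested members, 20 were called higher and 0 lower, while 284 of 15653 genes (1.81%) were called higher and 280 (1.79%) lower over the whole array, 3.6% in either direction. The members were chosen with earlier results of these data known, so their shares beside those of all genes are descriptions. An unadjusted p under 0.05 was reached by 33 members in the higher direction and by 0 in the lower one, against 9.21% of all genes in the higher direction. The median log2 fold change of the members was 0.58, and that of all genes tested was -0.01. A positive fold change was found in 35 of 37 members and in 47.5% of all genes, and the other members, Ube2c and Nuf2, both lay at -0.03. The filter used the mean over all 12 arrays, and without it the median over all 46 members with a probe was 0.51, with 18 called higher and 0 lower.

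**Figure D2:**
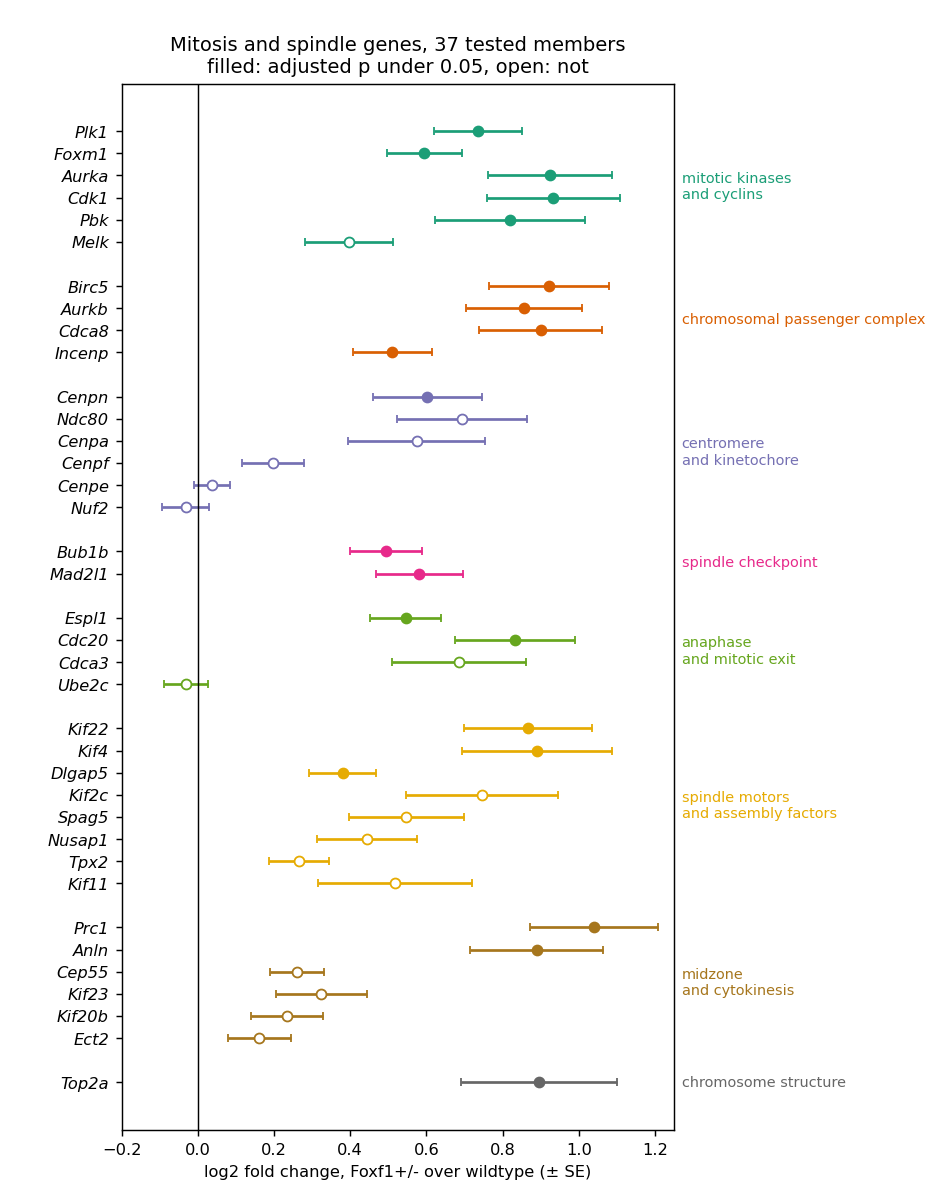
Log2 fold change of Foxf1+/- over wildtype (x axis) with its SE for the 37 tested members, grouped by role and ordered by p within a role. Filled points passed an adjusted p of 0.05 and open points did not, and 35 of the 37 points lie above 0.

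The sizes of the difference were moderate. Prc1 had the largest fold change of the set, 2.06-fold on a linear scale, and the 20 called members ran down to 1.30-fold for Dlgap5. In experiment A 25 members had every Foxf1+/- array above every wildtype array, against 8.25% of all genes. In experiment B 34 members did, against 12.4% of all genes, and in both experiments 24 did, against 2.89%. No overlap in the lower direction in both experiments was found for 3.18% of all genes. Within experiments the median fold change of the members came to 0.53 (A) and 0.67 (B). In 33 of 37 members the value was larger in B, but the difference between the experiments, tested by an interaction term in limma, was called for 0 members, with 0 of them at an unadjusted p under 0.05 either.

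Signal at the floor of the arrays set which members could be read. The floor, taken as the 5th percentile of gene means, was 5.91. Of 7 tested members with a mean within 0.5 of it (under 6.41) in at least 1 genotype, 0 were called by limma, while 20 of the other 30 were. Cenpe, Nuf2 and Ube2c lay under it in both genotypes, and Cep55, Tpx2, Cenpf and Ect2 in wildtype lungs only. Another 9 members failed the filter on dim probes and were not tested, namely Ccna2, Ccnb2, Cks2, Nek2, Bub1, Ttk, Kif20a, Racgap1 and Hmmr. Their levels stayed between 5.71 and 6.20 in every array of both genotypes, at which neither a difference nor its absence can be read. Other probes were tested for 22 members, 33 probes in all. Of these, 31 had a positive fold change, 11 were called higher and 0 lower, and most were not called. The exceptions in sign were second probes of Cdk1 (-0.04) and Dlgap5 (-0.00), both with a mean under 6.20. Some called members had another probe above 6.41 that was not called. These were Bub1b (0.37, limma, adjusted p = 0.181), Mad2l1 (0.20, limma, adjusted p = 0.532), Top2a (0.54, limma, adjusted p = 0.145) and Cenpn (0.44, limma, adjusted p = 0.0653). Second probes of Prc1 (0.10) and Anln (0.15), near the floor, were not called either.

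Kinases that drive entry into mitosis, with their cyclins and the transcription factor Foxm1, had 5 of 6 tested members called higher, with a median of 0.78. Plk1, the Polo kinase of centrosome maturation and spindle assembly, stood at 9.16, 9.32 and 9.82 (lowest, median and highest) in Foxf1+/- lungs and at 8.47, 8.70 and 9.20 in wildtype lungs. Within each experiment all its Foxf1+/- arrays lay above all wildtype arrays. Across experiments Foxf1+/- replicates 1 and 3 of experiment A (9.19 and 9.16) lay just under wildtype replicate 3 of experiment B (9.20). Its log2 fold change was 0.74 ± 0.12 (limma, adjusted p = 0.00624), the smallest p of the set, which ranked 105 among all genes. Foxm1, which activates transcription of late cell cycle genes, stood at 8.11, 8.64 and 8.91 in Foxf1+/- lungs and at 7.48, 7.81 and 8.29 in wildtype lungs. It too separated the genotypes within both experiments, with a fold change of 0.59 ± 0.10 (limma, adjusted p = 0.00813).

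The kinase Aurka, which acts at centrosomes and spindle poles, was 1.90-fold higher (limma, adjusted p = 0.0107). Cdk1, the cyclin-dependent kinase at the centre of mitotic entry, was 1.91-fold higher (limma, adjusted p = 0.0147). Pbk, a kinase active in mitotic cells, was 1.77-fold higher (limma, adjusted p = 0.0449). In these 3 kinases the genotypes did not overlap within either experiment. Melk, another kinase transcribed in dividing cells, did not pass, at 6.59, 6.92 and 7.32 in Foxf1+/- lungs and 6.43, 6.52 and 6.70 in wildtype lungs (0.40 ± 0.12, limma, adjusted p = 0.0924). The cyclins Ccna2 and Ccnb2, the Cdk subunit Cks2 and the centrosome kinase Nek2 were among the members at the floor.

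All 4 members of the chromosomal passenger complex, which corrects wrong attachments of chromosomes to the spindle and later acts in cytokinesis, were called higher, with a median of 0.88. Birc5 (survivin) stood at 9.72, 9.94 and 10.31 in Foxf1+/- lungs and at 8.50, 9.09 and 9.49 in wildtype lungs. No Foxf1+/- array of either experiment overlapped any wildtype array, and the fold change was 0.92 ± 0.16 (limma, adjusted p = 0.00928). Both other Birc5 probes were called higher as well, at 0.98 and 1.07. Aurkb, the kinase of the complex, stood at 8.26, 8.50 and 8.99 in Foxf1+/- lungs and at 7.10, 7.56 and 8.15 in wildtype lungs, again with no overlap over all 12 arrays (0.86 ± 0.15, limma, adjusted p = 0.0115). Cdca8 (borealin) was at 0.90 ± 0.16 (limma, adjusted p = 0.0118) and the scaffold Incenp at 0.51 ± 0.10 (limma, adjusted p = 0.0229).

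**Figure D3:**
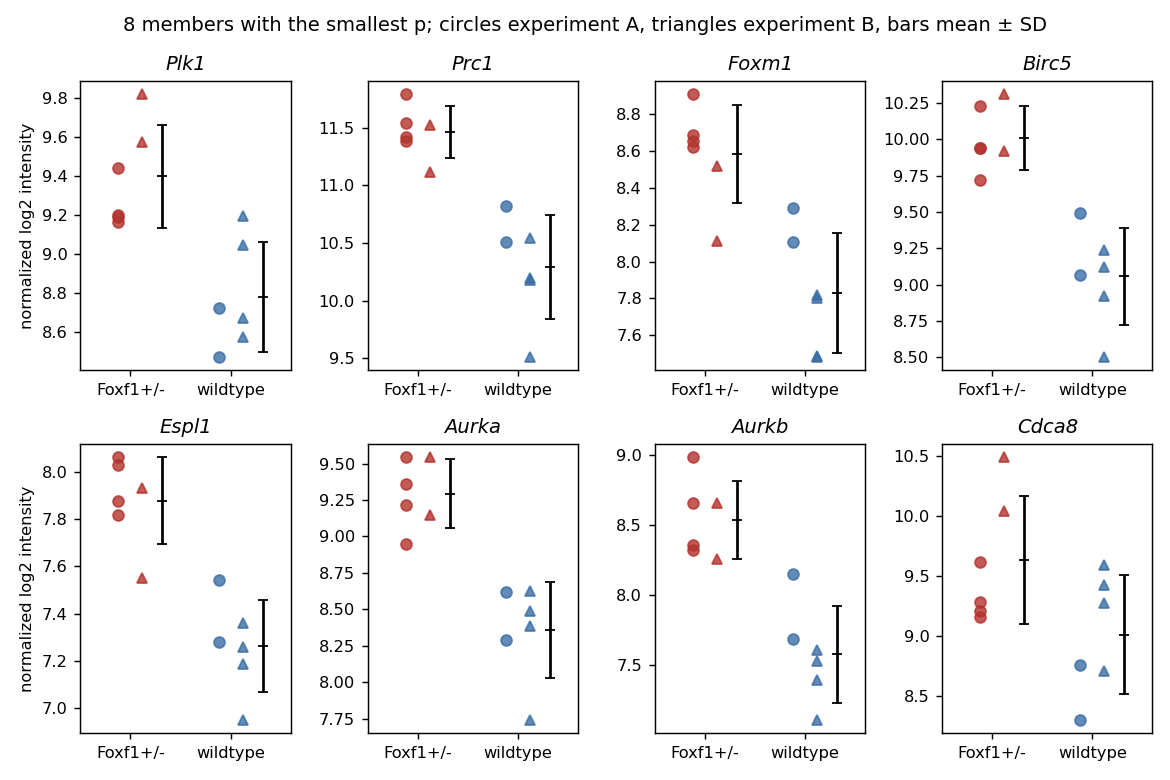
Normalized log2 intensity (y axis) of the 8 members with the smallest p in Foxf1+/- lungs (left, red) and wildtype lungs (right, blue), circles for experiment A and triangles for experiment B, with bars for the mean and SD of 6 arrays each. In each of the 8 genes every Foxf1+/- array lies above every wildtype array of the same experiment.

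Centromere and kinetochore genes had 1 of 6 members called higher, with a median of 0.39. Cenpn, a component of the constitutive centromere complex, stood at 7.75, 8.19 and 8.84 in Foxf1+/- lungs and at 7.40, 7.74 and 8.17 in wildtype lungs. The genotypes overlapped over all arrays but not within either experiment (0.60 ± 0.14, limma, adjusted p = 0.0424). Ndc80, which binds microtubules at the outer kinetochore, missed the threshold at 7.13, 7.63 and 8.12 in Foxf1+/- lungs and 6.51, 7.13 and 7.27 in wildtype lungs (0.69 ± 0.17, limma, adjusted p = 0.0505), although it too separated the genotypes within both experiments. Cenpa, the histone H3 variant that marks centromeres, was not called (0.57 ± 0.18, limma, adjusted p = 0.120). Nuf2, the partner of Ndc80, stood at 6.08, 6.17 and 6.42 in Foxf1+/- lungs and at 6.17, 6.25 and 6.40 in wildtype lungs, near the floor and overlapping (limma, adjusted p = 0.858). The kinetochore motor Cenpe (0.04), near the floor in both genotypes, and the kinetochore protein Cenpf (0.20), with a mean of 6.59 in Foxf1+/- lungs and 6.31, near the floor, in wildtype lungs, were also not called.

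Both spindle checkpoint members above the floor were called higher. Bub1b (BubR1), part of the complex that blocks anaphase, stood at 9.53, 9.87 and 10.14 in Foxf1+/- lungs and at 9.13, 9.22 and 9.60 in wildtype lungs (0.49 ± 0.09, limma, adjusted p = 0.0162). Mad2l1, which holds Cdc20 in check, stood at 9.23, 9.56 and 9.85 in Foxf1+/- lungs and at 8.85, 8.95 and 9.49 in wildtype lungs (0.58 ± 0.11, limma, adjusted p = 0.0196). In each gene the genotypes overlapped slightly across experiments and not within them.

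Genes of anaphase and mitotic exit had 2 of 4 members called higher, with a median of 0.62. Espl1 (separase), the protease that cuts the cohesin between sister chromatids, stood at 7.55, 7.91 and 8.06 in Foxf1+/- lungs and at 6.95, 7.27 and 7.54 in wildtype lungs. Every Foxf1+/- array lay above every wildtype array, by a narrow margin, and the fold change was 0.55 ± 0.09 (limma, adjusted p = 0.00933). Cdc20, the activator that starts anaphase, stood at 9.98, 10.26 and 10.94 in Foxf1+/- lungs and at 9.21, 9.63 and 10.21 in wildtype lungs (0.83 ± 0.16, limma, adjusted p = 0.0162). It overlapped across experiments only, and its 3 other probes were called higher too, at 0.79 to 0.95. Cdca3, which takes part in mitotic entry, was at 0.69 ± 0.18 and was not called (limma, adjusted p = 0.0607), while its second probe was called higher (0.63, limma, adjusted p = 0.0357). Ube2c, a ubiquitin-conjugating enzyme of anaphase, had 5.91, 6.00 and 6.16 in Foxf1+/- lungs and 5.87, 6.00 and 6.17 in wildtype lungs, at the floor (limma, adjusted p = 0.852).

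Spindle motors and assembly factors had 3 of 8 tested members called higher, and all 8 fold changes were positive, with a median of 0.53. Kif22, a chromosome-bound kinesin, stood at 9.03, 9.38 and 10.33 in Foxf1+/- lungs and at 8.41, 8.83 and 9.40 in wildtype lungs (0.87 ± 0.17, limma, adjusted p = 0.0183). Kif4, a kinesin of chromosome arms and the spindle midzone, stood at 8.27, 8.59 and 9.15 in Foxf1+/- lungs and at 7.177, 7.82 and 8.13 in wildtype lungs (0.89 ± 0.20, limma, adjusted p = 0.0328). The genotypes did not overlap on any of the 12 arrays for Kif4, and for Kif22 they overlapped only across experiments. The microtubule-associated Dlgap5 was called at 0.38 ± 0.09 (limma, adjusted p = 0.0406). Its genotypes overlapped slightly in experiment A (lowest Foxf1+/- array 6.65, highest wildtype array 6.66), and it stayed called in 2 of 12 fits that left out an array. Kif11 (Eg5), the motor that pushes spindle poles apart, stood at 7.51, 7.91 and 8.23 in Foxf1+/- lungs and at 6.66, 7.45 and 7.91 in wildtype lungs, with overlap, and was not called (0.52 ± 0.20, limma, adjusted p = 0.212). The microtubule depolymerase Kif2c (0.75), the spindle proteins Spag5 (0.55) and Nusap1 (0.44) and the Aurora A activator Tpx2 (0.26) were also not called, with limma adjusted p-values of 0.0675 to 0.1003.

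Midzone and cytokinesis genes had 2 of 6 tested members called higher, with a median of 0.29. Prc1, which bundles the antiparallel microtubules of the midzone, stood at 11.12, 11.47 and 11.79 in Foxf1+/- lungs and at 9.51, 10.35 and 10.82 in wildtype lungs. All Foxf1+/- arrays exceeded all wildtype arrays, and the fold change was 1.04 ± 0.17 (limma, adjusted p = 0.00701). Anln (anillin), a scaffold of the contractile ring, stood at 9.91, 10.33 and 10.79 in Foxf1+/- lungs and at 8.97, 9.53 and 9.86 in wildtype lungs, also without overlap (0.89 ± 0.17, limma, adjusted p = 0.0188). Kif23, a motor of the centralspindlin complex, was not called (0.32 ± 0.12, limma, adjusted p = 0.183). The RhoA activator Ect2 stood at 6.27, 6.47 and 6.81 in Foxf1+/- lungs and at 6.15, 6.21 and 6.56 in wildtype lungs, with overlap in experiment A, and was not called (0.16 ± 0.08, limma, adjusted p = 0.358). Cep55 (0.26, limma, adjusted p = 0.0733) and Kif20b (0.23, limma, adjusted p = 0.225), which act late in cytokinesis, were not called either. Top2a, the topoisomerase that untangles sister chromatids, was the remaining member, at 9.76, 10.18 and 10.53 in Foxf1+/- lungs and 8.12, 9.26 and 9.70 in wildtype lungs, with no overlap (0.90 ± 0.21, limma, adjusted p = 0.0384).

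The members moved together from lung to lung. With the experiment effect taken out, the median difference of the 37 members from their wildtype means was 0.41, 0.54, 0.52, 0.84, 0.50 and 0.85 in Foxf1+/- replicates 1 to 6. In wildtype replicates 1 to 6 it was -0.06, 0.17, 0.14, -0.01, 0.03 and -0.33. Every Foxf1+/- lung thus lay above every wildtype lung by this measure. Foxf1+/- replicate 6 was the highest lung for 18 members and replicate 4 for 15, and wildtype replicate 6 was the lowest for 26.

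**Figure D4:**
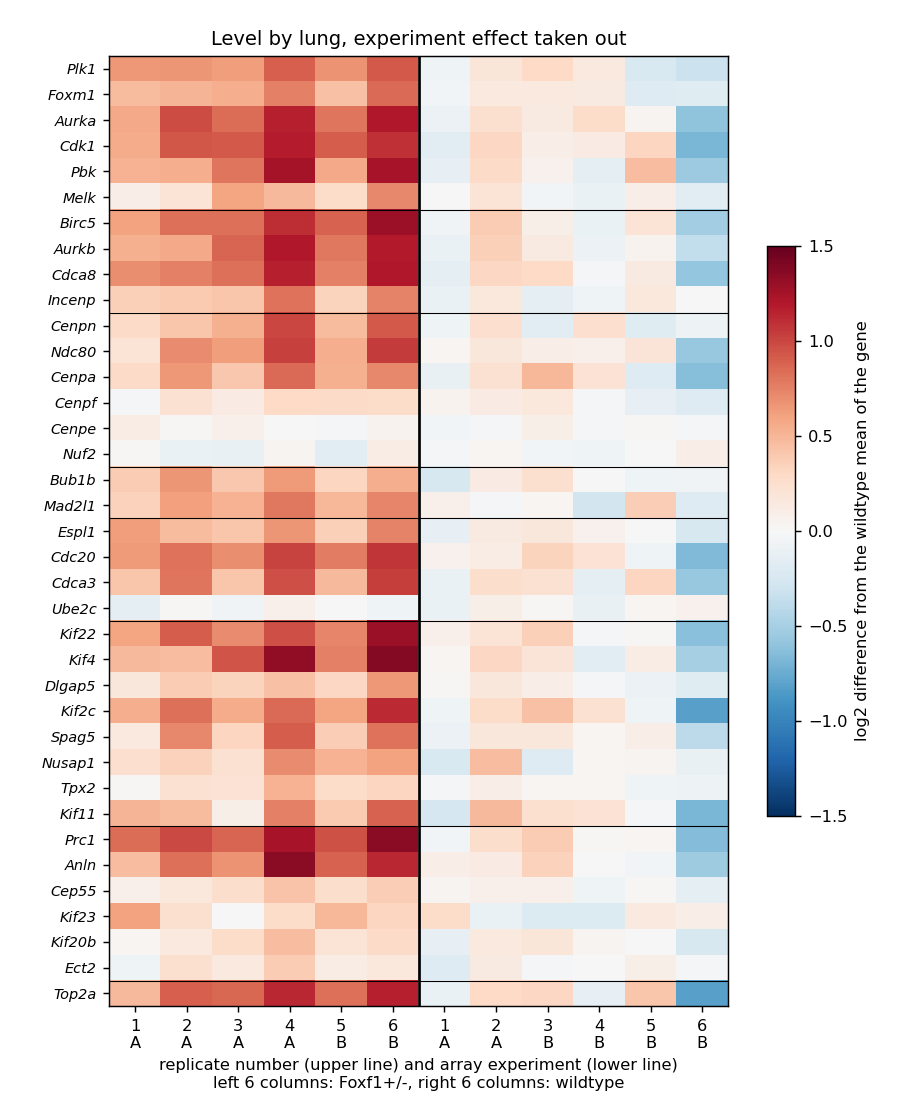
Log2 difference of each tested member (rows, in the order of the role groups) from its wildtype mean, experiment effect taken out, in 6 Foxf1+/- lungs (left columns) and 6 wildtype lungs (right columns), red above and blue below the wildtype mean. Foxf1+/- replicates 4 and 6 are the most red and wildtype replicate 6 the most blue column.

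The count of calls rested on single lungs more than the direction did. Leaving out Foxf1+/- replicate 6 gave 5 members called higher, leaving out wildtype replicate 1 gave 6, and leaving out Foxf1+/- replicate 5 gave 11, while any other array left out gave 15 to 25. Plk1, Foxm1, Birc5, Espl1 and Prc1 were called whichever array was left out, with a limma adjusted p of at most 0.0477. The other 15 lost their call without at least 1 array. All 15 lost it without Foxf1+/- replicate 6, with a limma adjusted p from 0.0527 for Aurka to 0.176 for Pbk, and all but Aurka also without wildtype replicate 1. Without Foxf1+/- replicate 5, 9 were lost. The median of the members stayed between 0.50 and 0.66 whichever array was left out. In each experiment fitted alone limma called 0 members, with 23 higher at an unadjusted p under 0.05 in experiment A (4.42% of all genes) and 31 in experiment B (7.6% of all genes).

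Erythroid markers moved with the result. Of 12 listed genes 8 had a probe and 7 were tested, 2 of them with a positive fold change. Averaged over the 7, they stood at 9.48, 9.90 and 10.26 (lowest, median and highest) in Foxf1+/- lungs and at 10.09, 10.21 and 10.30 in wildtype lungs, with the experiment effect taken out. None of the 7 was called by limma, and 2 were lower at an unadjusted p under 0.05, Alas2 (-1.02, adjusted p = 0.0751) and Slc4a1 (-0.98, adjusted p = 0.117). With this level as a covariate, limma called 0 members (19 were higher at an unadjusted p under 0.05), their median was 0.41, and Plk1 had the smallest adjusted p of the set, 0.0976. Over the whole array 325 probes were called with this covariate, and 1007 of 33947 (2.97%) without it. Only Foxf1+/- replicate 1 (10.26) reached the wildtype range of this level, and the other Foxf1+/- lungs lay below every wildtype lung. The level can thus hardly be told apart from genotype, and this fit cannot separate the 2. With the covariate 35 of 37 members had a positive fold change. The erythroid level was lowest in Foxf1+/- replicates 4 and 6 (9.48 and 9.82), the lungs highest in the mitosis genes. It was highest in wildtype replicate 6 (10.30), the lung lowest in them. The part of these cells in the result was not tested.

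Of the 5 arrays low in squamous epithelium markers 4 were Foxf1+/-, and the same 5 arrays were lowest in skeletal muscle markers, which stood at 7.23, 8.07 and 10.30 in Foxf1+/- and 6.68, 9.50 and 9.63 in wildtype lungs. The lungs highest in the mitosis genes, Foxf1+/- replicates 4 and 6, had squamous levels of 9.05 and 9.13, and the lowest, wildtype replicate 6, had 6.83. With the squamous level as a covariate 30 members were called higher, and with the skeletal muscle level 31. With the T cell and thymocyte level 19 were called, and without wildtype replicate 5, 20. The part of these tissues in the result was not tested beyond these fits.

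The mean of 7 mast cell markers, at 9.75 to 10.2 in Foxf1+/- and 8.54 to 8.82 in wildtype lungs, separated the genotypes completely. Of the 7, 4 were called higher and 1 lower, against 1.81% and 1.79% of all genes. Tpsb2, Cma1, Mcpt4 and Cpa3 lay at 2.44 to 2.61 and Kit at -0.99, and Hdc and Ms4a2 were not called. This mean level cannot be told apart from genotype, and the part of mast cells in the result was not tested.

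Markers of some cells that make up the lung also varied with the members. Among all genes tested 1.81% were called higher and 1.79% lower. Fibroblast and smooth muscle markers stood at 11.90, 12.07 and 12.23 in Foxf1+/- lungs and at 11.66, 11.94 and 12.02 in wildtype lungs, with 1 of 6 called higher and 0 lower. Of their 6 fold changes 4 were positive. The mean level of the list was highest in Foxf1+/- replicates 4 and 6 (12.23 and 12.17) and lowest in wildtype replicate 6 (11.66), the lungs at the ends of the range of the mitosis genes. Alveolar type 1 markers ran the other way, lowest in Foxf1+/- replicates 4 and 6 (12.17 and 12.19) and highest in wildtype replicate 6 (12.84), with 0 of 5 called by limma and 0 at an unadjusted p under 0.05. Alveolar type 2 and airway markers were also highest in wildtype replicate 6 (13.03 and 11.23). They had 0 of 5 and 0 of 4 positive fold changes and 0 called by limma, with 2 airway genes lower at an unadjusted p under 0.05. Endothelial markers stood at 11.60, 11.75 and 11.92 in Foxf1+/- lungs and at 11.61, 11.86 and 11.92 in wildtype lungs, with 1 of 6 called higher and 1 lower. Their mean level was lowest in Foxf1+/- replicates 4 and 6 (11.60 in each), closely followed by wildtype replicate 5 (11.61). In wildtype replicate 6 it was 11.91, near the highest level, that of wildtype replicate 1 (11.92). Neutrophil markers stood at 8.18, 8.41 and 8.62 in Foxf1+/- lungs and at 8.50, 8.67 and 8.91 in wildtype lungs, with 1 of 9 called lower and 0 higher. Their lowest level was in Foxf1+/- replicate 1 (8.18) and their highest in wildtype replicate 5 (8.91). The part of these cells in the result was not tested.

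The members are set here beside 5 other lists of cell cycle genes. A list of 70 further mitosis genes, chosen like the members with results of these arrays known, had 16 of 58 tested genes called higher and 0 lower, with a median of 0.21. Over all genes 1.81% were called higher. An unadjusted p under 0.05 was reached by 32 of the 58 in the higher direction and 0 in the lower, against 9.21% of all genes in the higher direction. Cenpt, a linker of the inner to the outer kinetochore (0.45 ± 0.05, limma, adjusted p = 0.00145), Iqgap3, a scaffold protein expressed in proliferating cells (1.01 ± 0.14, limma, adjusted p = 0.00228), and Kif18b, a kinesin of astral microtubules (1.00 ± 0.15, limma, adjusted p = 0.00407), had its smallest p and were each called whichever array was left out. Cenpt and Iqgap3 stayed called with the erythroid level as a covariate (limma, adjusted p = 0.0266 and 0.0349), as 2 of the 58, and Kif18b did not (limma, adjusted p = 0.0642). The count of 16 became 5 where wildtype replicate 1 or Foxf1+/- replicate 6 was left out, 8 where Foxf1+/- replicate 5 was, and 10 where wildtype replicate 4 was.

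DNA replication genes had 2 of 36 called higher and 0 lower, with a median of 0.11, while 1.81% of all genes were called higher. An unadjusted p under 0.05 was reached by 12 of the 36 in the higher direction and 0 in the lower, against 9.21% of all genes in the higher direction. A positive fold change was found in 25 of the 36, against 47.5% of all genes. The called genes were Chaf1a, a chromatin assembly factor (0.33 ± 0.08, limma, adjusted p = 0.0423), and Rrm1, a subunit of ribonucleotide reductase (0.27 ± 0.07, limma, adjusted p = 0.0444). Each stayed called in 2 of 12 fits that left out an array, and the limma adjusted p reached 0.162 for Chaf1a without Foxf1+/- replicate 6. The next gene, the replication fork helicase factor Cdc45, was not called (0.40 ± 0.12, limma, adjusted p = 0.0937). Among cyclins, kinases and inhibitors of G1, 1 of 15 was called higher and 0 lower, with a median of 0.07. In this list 4 genes were higher at an unadjusted p under 0.05 and 0 lower, and 12 of 15 fold changes were positive. The called gene was Cdkn2c, an inhibitor of Cdk4 and Cdk6 (0.62 ± 0.10, limma, adjusted p = 0.00721), called whichever array was left out. With the erythroid level as a covariate it lost its call (limma, adjusted p = 0.107), and 0 of the 15 were called by limma. The cyclin Ccnd1 (0.50 ± 0.13, limma, adjusted p = 0.0715) and the Cdk inhibitor Cdkn1a (0.74 ± 0.28, limma, adjusted p = 0.200) were not called.

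Subunits of the anaphase-promoting complex, the ubiquitin ligase that Cdc20 activates, had 0 of 13 called by limma and a median of -0.00, and only Cdc27 (0.13 ± 0.06, higher) had an unadjusted p under 0.05. Transcription regulators of the cell cycle, such as E2f factors, Rb family members and subunits of MuvB and NF-Y, had 0 of 16 called by limma and a median of 0.03, and an unadjusted p under 0.05 for 3 higher genes and 1 lower gene. The smallest p there were those of the Rb family member Rbl1 (-0.21, limma, adjusted p = 0.134), the repressor E2f7 (0.20, limma, adjusted p = 0.177) and Tfdp1, the partner of E2f factors (0.23, limma, adjusted p = 0.216). Over all genes 1.81% were called higher and 1.79% lower, and 9.21% were higher at an unadjusted p under 0.05. Counts and medians of these lists are descriptions, and no test compared one list with another.

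**Figure D5:**
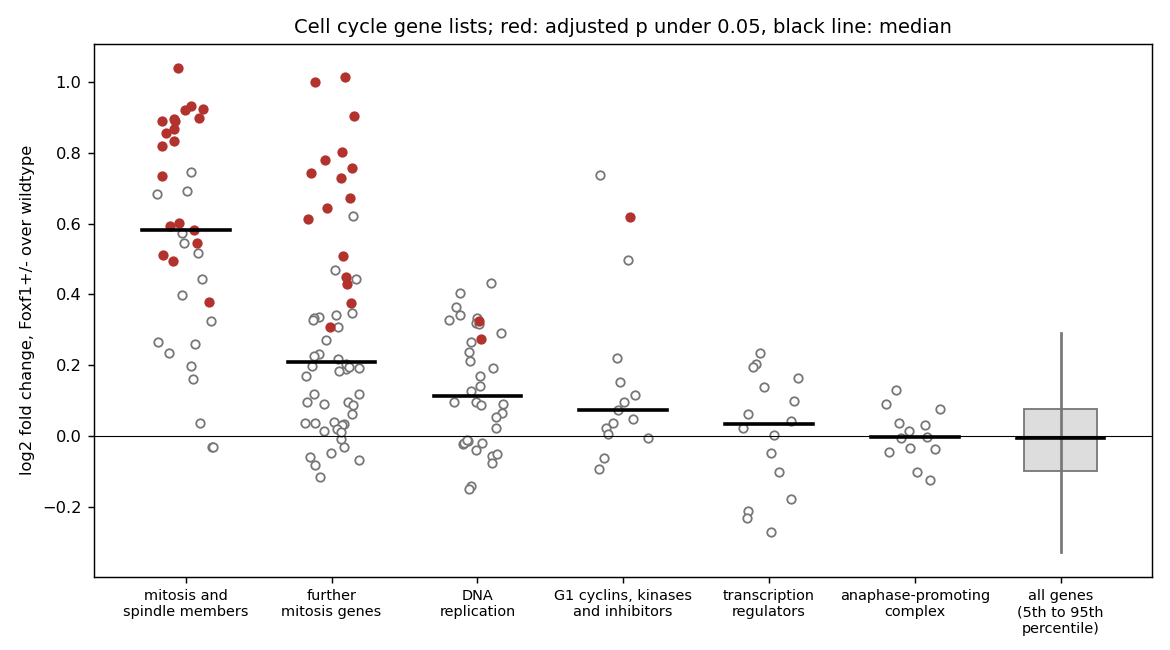
Log2 fold change of Foxf1+/- over wildtype (y axis) for each tested gene of the members and of 5 other cell cycle lists, red where the adjusted p was under 0.05, with a black line for the median, and at the right the quartiles and the 5th to 95th percentile of all genes tested. The medians run from 0.58 for the members over 0.21 for further mitosis genes to -0.00 for the anaphase-promoting complex.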

How the data were processed

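The members and all gene lists were chosen with earlier results of these data known. The authors deposited raw probe intensity on a linear scale, without background subtraction or normalization. The deposited processed log2 values, which served as an alternative, were variance stabilized and spline normalized by the authors in lumi and corrected for 2 array experiments with ComBat (versions not given in the sources used here). From 45281 probes, 18 with damaged cells were left out. In R 4.3.3, limma 3.58.1 corrected the raw intensities for background (normexp, with an offset of 50 that damps fold changes of dim genes), followed by log2 and quantile normalization. The tables hold no detection p, so probes with a mean above the 25th percentile, 33947, were kept. Limma fitted genotype and experiment, with two-sided moderated tests and Benjamini-Hochberg adjustment. Experiments were inferred by 2-means clustering of 3 percentiles (5, 50 and 95) of raw log2 signal per array (mean silhouette 0.73). Columns were matched to lungs by name. Gene symbols came from the platform annotation, which gives 1 symbol for 34874 intact probes, several for 18 and none for 10371.

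Members named with the lowest, median and highest level are, in each role group, those with the 2 smallest p and, where any did not pass, the 1 with the largest p. From each other cell cycle list up to 3 genes with the smallest p are named. The pipeline was tested on simulated data. There the share of known changes that it called missed the minimum first set, both before and after the noise was redrawn in another way, and that minimum was then lowered. Alternatives covered background correction, scaling, the processed values with the methods' t-test, filters, blocks, array weights, covariates, other probes and leaving out each array. A planned share of proteins with a KEN box was not computed, since no protein table was used here.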

Additional observations from a re-analysis of the deposited data

Results flagged for a closer look

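Ect2, the RhoA activator of cytokinesis, had 1 wildtype lung apart from the others in its normalized level. Wildtype replicate 2 stood at 6.56, and the next wildtype lung at 6.25, a gap of 0.749 of the range of the 6 wildtype lungs. Both levels lie within or close to 0.5 of the floor of the arrays. With the experiment effect taken out, that lung no longer stood apart, and the gap of the highest wildtype lung was 0.156 of the range. Of 76 combinations of a member or Foxf1 and a genotype checked in this way, 1 stood out, where chance alone gives about 1 in 20. With the experiment effect taken out 1 also did, Ndc80 in wildtype replicate 6, at 6.36 with the next wildtype lung at 6.96 (a gap of 0.783 of the range).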

How the results depend on the processing

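Over 35 alternatives 0 members were called lower, and the median log2 fold change ran from 0.41 (erythroid covariate) to 0.75 (squamous epithelium covariate), against 0.58. The count of members called higher, 20, became 11 without the experiment block, 0 in experiment A alone, 0 in experiment B alone, 0 with the erythroid covariate, and 31 with the skeletal muscle covariate, which like the squamous (30) and heart muscle (23) covariates was chosen after seeing the data. Leaving out 1 array gave 5 to 25. It was 18 with no filter, 21 to 22 with other background corrections or scaling, 21 on the processed values with an experiment term, 28 without one, and 23 with the methods' t-test after Benjamini-Hochberg adjustment. Whether replicate numbers pair littermates was not established. Deviations of lungs with the same number correlated at -0.45 to -0.06. That cannot decide it, since replicates 3 and 4 join lungs of different inferred experiments and the deviations come from a fit shared by all lungs. With the replicate number as a block 8 members were called, and 0 with the replicate and experiment blocks together (29 at an unadjusted p under 0.05). Foxf1 lost its call without the experiment block (-0.73, limma adjusted p = 0.184), in experiment A (-0.80, 0.174) and B alone (-1.20, 0.0695), with the replicate block (-0.73, 0.0946) and with both blocks (-0.96, 0.0933), and kept it whichever array was left out (-1.07 to -0.89). Signs turned for members near the floor, Ube2c at 0.0055 (no experiment block, and replicate block), Cenpe at -0.0068 (experiment B alone) and Nuf2 at 0.017 (without Foxf1+/- replicate 5, and -0.087 to 0.017 over the arrays left out). Of 1291 values of single members under an alternative, 1052 kept their side of the threshold, 174 lost a call, 61 gained one and 4 changed sign. Over the whole array 1007 probes were called, 501 without the experiment block, 10 and 56 in experiments A and B alone, 149 with both blocks, 325 with the erythroid covariate, 401 to 1112 with an array left out, 1861 with the methods' t-test and 2582 on the processed values without an experiment term, 2138 and 1906 with the squamous and skeletal muscle covariates. The causes were not tested. Fold changes near the floor of 5.91 cannot be read at this signal.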
